A study of Caenorhabditis elegans with 27 samples.

Results

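The 8 libraries described here come from AM05, a Caenorhabditis elegans strain in which topoisomerase I carries a degron and GFP (top-1::degron::GFP). They were chosen by strain and by the replicate number in the labels, 4 libraries called rep1 and 4 called rep2, out of 27 libraries in all. Each number was sampled without auxin and after 30, 60 and 120 min on plates with 1 mM auxin, so every rep1 library has a rep2 library of the same auxin time. Auxin lets the plant F-box protein TIR1 send a degron-tagged protein to the proteasome, and the labels do not describe the TIR1 transgene of AM05. Whole worms labelled L2/L3 were used, raised from starved L1 larvae for 24 h at 22 °C, and poly(A) RNA was sequenced as stranded libraries. The same design in CA1200, the control strain with no tagged target, gave 7 libraries (rep2 was not analysed here at 60 min). The labels give 1 stage for all of these worms and no count of molts, body length or gonad size.

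C. elegans larvae grow through stages that each end in a molt, in which a new cuticle is made under the old one and the old one is shed. Many transcripts of the skin rise and fall once per stage in a fixed order, driven by nuclear receptors such as NHR-23 and by the period-like protein LIN-42, and each cuticle collagen has its own phase in that order. The germ line grows over the same stages but does not cycle, and heterochronic genes such as lin-14 and lin-28 are lowered as larvae pass from one stage to the next.

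The 2 series of the TOP-1 strain differed in many of the genes that cycle with the molt. In rep2, the furrow collagens, the transient apical matrix of the molt, the molting regulators, the hedgehog-related ligands and core histones were mostly higher. Germ-granule genes held a larger summed share of TPM there, in which iff-1 weighed heavily. In rep1, a group of numbered collagens with col-39, col-146 and col-93 at its head was higher, together with several neuronal and muscle genes. Nearly all genes called had the same sign at all 4 auxin times, which a call on these same 4 pairs favours. For many cuticle collagens the 2 series moved in opposite directions over the 2 h.

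Transcript levels below are TPM, a share of all transcripts corrected for gene length, scaled between libraries, and 4 values in a row stand for 0, 30, 60 and 120 min. A difference is rep2 minus rep1 on log2(scaled TPM + 1), the mean of the 4 time-matched pairs ± its standard error, from limma with auxin time as a block; this scale understates the fold in genes of low level. A gene was called at a Benjamini-Hochberg adjusted p under 0.05 over all genes tested. Of 11927 genes tested, 2592 were higher and 2816 lower in rep2, so 45.3% were called (21.7% higher and 23.6% lower). The sign was the same in all 4 pairs for 5359 of the 5408, which a call on these same pairs favours. A difference of at least 1 was seen in 1129 higher and 652 lower genes, and a difference of at least 4 in 34 and 20. The median over all genes tested was -0.03. The count was 3487 without the 60 min pair and 3266 with no term for auxin time. Counts for a gene list are to be read against those shares. Ranges without overlap are a description of the genes named, since the share of such genes among all tested is not given here.

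The 4 libraries of a number may come from 1 culture that was split over the auxin times, so the p-values compare these 2 series over 4 pairs and not cultures in general. Culture, larval phase, growth, handling and library batch cannot be told apart between rep1 and rep2. Estimated depth was 13.2 to 18.1 M fragments in rep1 and 17.4 to 20.7 M in rep2. Between 11493 and 11721 genes reached a TPM of 1 in rep1 libraries, and between 11444 and 12024 did so in rep2. The 100 most abundant genes held 47.2% to 49.5% of TPM in rep1 and 47.5% to 51.5% in rep2. The part of these values in the results was not tested. In whole worms, fewer cells of a type and less RNA per cell cannot be told apart.

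Molting regulators were mostly higher in rep2. Of 13 genes measured, all tested, 8 were higher, 1 was lower and 4 were not called, with a median of 0.89 beside -0.03 over all genes. lin-42, the period-like gene that paces the molts, stood at 134, 56.5, 39.9 and 20.03 in rep1 and at 828, 520.3, 427 and 338 in rep2. Every rep2 library lay above every rep1 library, and in both series the 120 min library was the lowest. The difference of lin-42 was 3.30 ± 0.22 (limma adjusted p = 0.000253). nhr-23, the nuclear receptor that drives molting, stood at 10.3, 7.68, 10.7 and 14.8 in rep1 and at 49.3, 28.3, 26.4 and 27.8 in rep2, again without overlap, with a difference of 1.502 ± 0.22 (limma adjusted p = 0.00326).

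grh-1, the Grainyhead factor of the epidermis, differed by 2.00 ± 0.20, from 7.53 to 15.5 in rep1 to 27.5 to 111 in rep2. In both series its highest library was the one without auxin. peb-1, a DNA-binding protein needed for molting, was higher by 2.23 ± 0.20. bed-3 was higher by 1.29 ± 0.14, blmp-1 by 0.97 ± 0.12 and myrf-1 by 0.89 ± 0.13; the last encodes a membrane-bound transcription factor of the molting oscillator. The call of blmp-1 was lost with no term for auxin time (adjusted p = 0.0804). Not all regulators followed: nhr-25, a receptor that also acts in molting, stood at 27.7, 32.2, 32.9 and 36.6 in rep1 and 26.9, 28.03, 34.1 and 36.4 in rep2, a difference of -0.05 ± 0.08 (limma adjusted p = 0.653). nhr-85 (0.06 ± 0.10) and myrf-2 (0.04 ± 0.07) were not called either, and elt-3, a GATA factor of the hypodermis, was the lower one (-0.34 ± 0.11).

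The 6 furrow collagens, which form the circumferential furrows of the cuticle and are required together, were all higher in rep2. Their differences lay within a narrow span, from 4.06 for dpy-10 to 4.41 for dpy-7, with a median of 4.30. dpy-7 (chromosome X, 7536413 to 7538162 in the files' coordinates) stood at 30.8, 14.9, 10.9 and 7.45 in rep1 and at 549.8, 418, 259.8 and 169.5 in rep2. The lowest rep2 library, at 120 min, was still above the highest rep1 library, at 0 min. Its difference was 4.41 ± 0.11 (limma adjusted p = 1.76e-05). The span of dpy-7 in the files overlaps that of glb-16.

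dpy-2 stood at 19.99, 12.8, 11.1 and 6.47 in rep1 against 454, 363, 226 and 138 in rep2, and dpy-10 at 21.2, 10.9, 7.76 and 7.89 against 362, 262, 155 and 105. Levels of the 6 genes went down with time in both series, with slopes whose medians were -0.77 log2 per hour in rep1 and -0.87 in rep2. None of the 6 slope differences was called, where 2.36% of all genes tested were (1.95% with a higher slope in rep2 and 0.419% with a lower one). The median difference of the 6 in the single pairs was 4.07, 4.56, 4.22 and 4.28 from 0 to 120 min, so the gap kept its size while the level in each series went down.

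**Figure D1:**
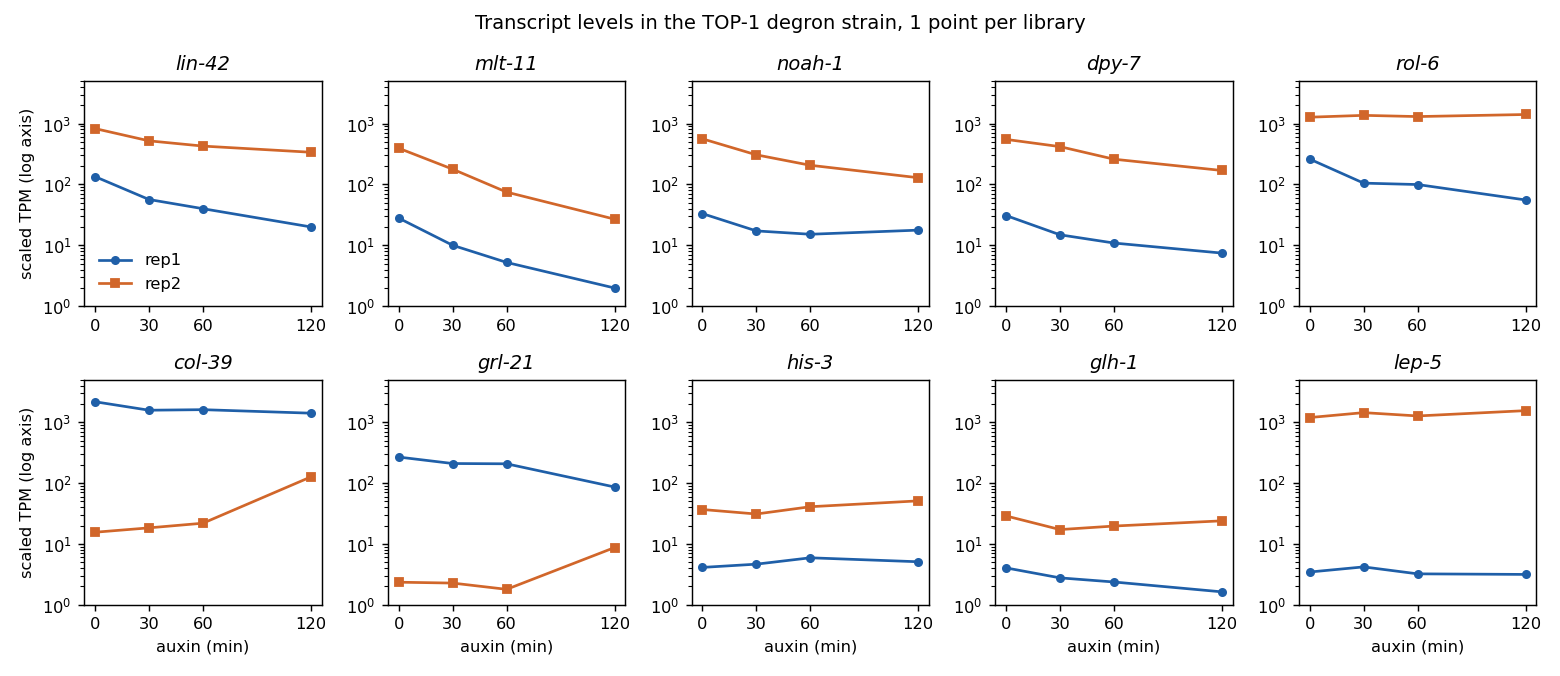
Scaled TPM on a log axis against minutes of auxin for 10 genes, 1 point per library (blue circles rep1, orange squares rep2; no error bars, since each series has 1 library per time). The lines of the 2 series do not cross in any panel: rep2 is higher for lin-42, mlt-11, noah-1, dpy-7, rol-6, his-3, glh-1 and lep-5, and lower for col-39 and grl-21.

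Proteases, protease inhibitors and matrix proteins of the molt were mostly higher in rep2: of 36 listed, 35 were tested, 29 were higher, 3 were lower and 3 were not called (median 1.57). Transient matrix proteins, laid down over the skin before each new cuticle, were among the most different. lpr-3, a lipocalin of that matrix, stood at 41.6, 28.3, 22.6 and 13.4 in rep1 and 946, 681, 435 and 234 in rep2, a difference of 4.31 ± 0.11 (limma adjusted p = 1.76e-05). noah-1, a zona pellucida-domain protein, stood at 33.2, 17.2, 15.2 and 17.7 and 562, 306, 206 and 129 and differed by 3.65 ± 0.23. Neither gene's rep1 and rep2 ranges overlapped. noah-2 differed by 3.82 ± 0.18, let-4 by 3.26 ± 0.10, egg-6 by 2.80 ± 0.11 and sym-1 by 2.65 ± 0.24; the last 3 encode leucine-rich repeat proteins of the apical surface.

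mlt-11, which encodes a protease inhibitor needed to shed the cuticle, showed the steepest course of the list. It went from 27.97 without auxin to 1.99 at 120 min in rep1 and from 394 to 26.9 in rep2, so the rep2 library at 120 min lay near the rep1 library at 0 min. The series differed by 3.65 ± 0.14 (limma adjusted p = 4.10e-05), while the slopes, -1.57 and -1.91 log2 per hour, were not called different. mlt-9 was higher by 3.71 ± 0.14 and mlt-8 by 3.09 ± 0.15. mlt-10, needed for molting, was higher by 3.17 ± 0.39, from 88.7, 29.7, 27.7 and 9.45 in rep1 to 309, 298, 270.4 and 213 in rep2. nas-37, the astacin metalloprotease that opens the old cuticle at ecdysis, was higher by 3.12 ± 0.12, and its levels of 4.64 to 10.4 in rep1 and 51.02 to 88.4 in rep2 did not overlap.

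Exceptions stood in the same list. fbn-1, a fibrillin-like matrix protein, stood at 8.88, 2.80, 2.08 and 2.92 in rep1 and 26.2, 5.55, 2.37 and 1.96 in rep2. The series overlapped, the 120 min pair had the opposite sign to the 0 min pair, and the difference of 0.49 ± 0.30 was not called (limma adjusted p = 0.234). The dual oxidase bli-3 (0.16 ± 0.10) and its tetraspanin partner tsp-15 (0.36 ± 0.16), which crosslink cuticle proteins, were not called, and the oxidase maturation factor doxa-1 was lower (-0.90 ± 0.17). mlt-7, a peroxidase that crosslinks the new cuticle, was lower, with a difference of -1.45 ± 0.34 and stood at 65.4, 15.9, 15.5 and 18.1 in rep1 against 8.80, 5.90, 7.12 and 10.6 in rep2. dpy-6, a mucin-like cuticle protein, was the third lower gene (-1.25 ± 0.26).

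Enzymes that fold and process collagen were mostly higher in rep2. Of 15 listed, 12 were tested, 9 were higher, 1 (mlt-7) was lower and 2 were not called (median 0.70). Of these, mlt-7, bli-3, tsp-15, bli-4, dpy-31 and dpy-11 were already counted in the list of molting proteases and matrix proteins. dpy-18, a catalytic subunit of collagen prolyl 4-hydroxylase, was higher by 1.88 ± 0.11, and its partner phy-2 by 1.52 ± 0.21. pdi-2, the disulfide isomerase of that enzyme and the most abundant member, stood at 690.2, 668, 585 and 405 in rep1 and 2675, 2478, 1892 and 1189.9 in rep2, a difference of 1.77 ± 0.09. dpy-11, a thioredoxin-like protein of the hypodermis, was higher by 2.04 ± 0.14. The call of phy-2 was lost with no term for auxin time (adjusted p = 0.0582).

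The other named cuticle collagens were higher in rep2 in all 10 cases tested of 14 listed, with a median of 3.50. rol-6, whose mutants roll, stood at 261, 105, 99.6 and 55.6 in rep1 and 1273, 1364, 1304 and 1409.5 in rep2. The rep2 libraries stayed within a narrow range while the rep1 libraries went down with time. Its difference was 3.58 ± 0.36 (limma adjusted p = 0.000889). sqt-3, an abundant collagen, stood at 904, 481, 432 and 241 in rep1 and 4809, 5595, 4958 and 4767 in rep2, with a difference of 3.44 ± 0.29. sqt-1 differed by 3.75 ± 0.34 and lon-3 by 3.61 ± 0.32.

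dpy-13 and dpy-5, collagens that shape the body, differed less without auxin than at 120 min. dpy-13 stood at 1071, 457, 403 and 189.8 in rep1 and 2859.5, 3255, 2955 and 3645 in rep2, so that the pair difference went from 1.42 without auxin to 4.26 at 120 min. Its slopes were -1.15 log2 per hour in rep1 and 0.15 in rep2, a difference of 1.302 ± 0.19 (limma adjusted p = 0.0209). For dpy-5 the same slope difference was 1.302 ± 0.23 (limma adjusted p = 0.0342). Over the 10 genes the median pair difference went from 2.38 to 4.52, and 4 slopes were called higher and 1 lower in rep2. The last was dpy-17, a scarce collagen at 1.71, 1.18, 0.840 and 0.807 in rep1 and 12.7, 5.29, 3.10 and 0.828 in rep2.

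Numbered collagens split in both directions. Of 158 col genes in the files, 92 were tested; 24 were higher, 40 were lower and 28 were not called, with a median of -0.64. With 3 that passed the filter through rep2 alone and 1 through rep1 alone left aside, 21 of 88 were higher and 39 lower. Those lower in rep2 included the 4 most abundant by mean level, col-10 (-2.05 ± 0.30), col-144 (-1.85 ± 0.32), col-3 (-2.40 ± 0.26) and col-117 (-2.39 ± 0.25). col-39 stood at 2169, 1574, 1608 and 1407 in rep1 and 15.6, 18.4, 21.9 and 126 in rep2, a difference of -5.75 ± 0.57 (limma adjusted p = 0.000874), the lowest value of all genes tested. col-147 stood at 2305, 1733, 1622 and 1703 against 76.96, 67.5, 50.1 and 69.1, without overlap. col-146 (-4.97 ± 0.28), col-93 (-4.83 ± 0.39), col-160 (-4.53 ± 0.22) and col-159 (-4.46 ± 0.37) were lower by similar amounts. Near-identical copies lie among them (col-92, col-93 and col-94; col-12 and col-13; col-146 and col-147; col-159 and col-160), so reads may have been split or shared between copies, and the span of col-39 in the files lies inside that of dph-2.

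The col genes higher in rep2 had levels and courses of their own. col-128 stood at 3.92, 2.47, 2.65 and 1.09 in rep1 and 89.5, 94.8, 59.97 and 37.1 in rep2, and col-46 at 3.98, 1.89, 1.66 and 0.837 and 84.4, 70.6, 45.5 and 28.9. Both went down with time in each series, as the furrow collagens did. col-17 stood at 962, 381, 330.2 and 159 in rep1 and 3363, 3623, 3128 and 3597 in rep2, a course close to that of rol-6. Summed over the 108 cuticle collagens tested, collagen transcripts made up 8.62%, 6.66%, 6.10% and 5.39% of TPM in rep1 and 4.57%, 4.48%, 4.45% and 5.74% in rep2. Rep1 held the larger share at 0, 30 and 60 min and rep2 at 120 min.

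Adult cuticle collagens were near 0 in both series. None of 5 listed genes, col-19 among them, passed the filter, and their highest TPM in any library was 1.62 in rep1 and 3.61 in rep2. col-19 itself stood at 0.0623, 0.0803, 0.201 and 1.298 in rep1.

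**Figure D2:**
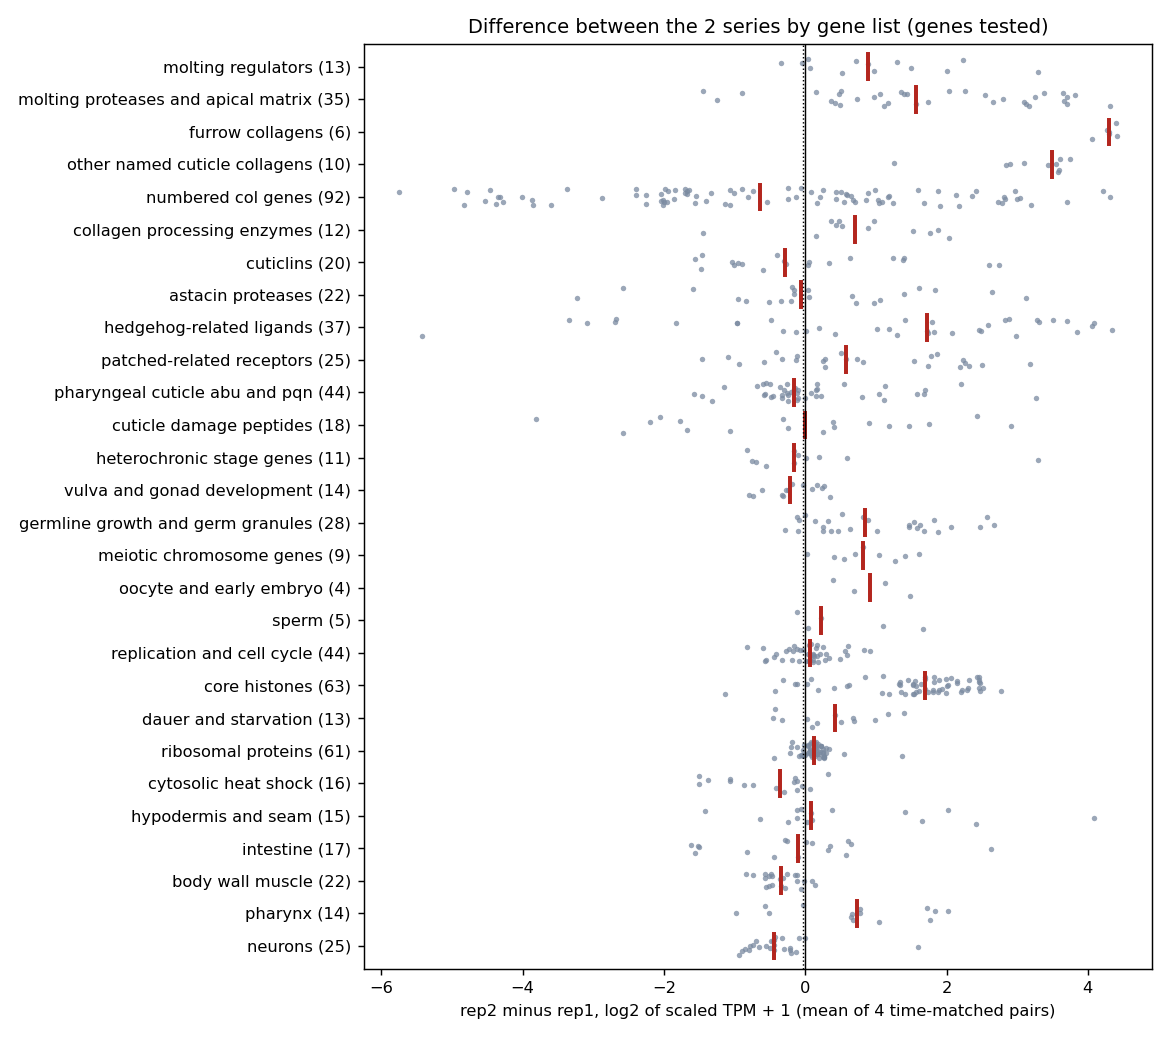
Difference between the series (rep2 minus rep1, log2 of scaled TPM + 1, mean of 4 pairs) for every gene tested in each list, 1 grey point per gene, with the list median as a red bar, the number tested in brackets and the median of all genes tested as a dotted line. Furrow collagens sit between 4.06 and 4.41, while numbered col genes spread from -5.75 to 4.31.

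The direction of change over the 2 h also differed between the series. A linear slope over auxin time was compared in 1 fit of the 8 libraries; 232 genes had a higher slope in rep2 and 50 a lower one. Of the 232, 206 went down in rep1 and up in rep2, and 34 of the 50 did the reverse. The count of 282 was 88 without the 30 min pair, 105 without the 60 min pair and 0 without the 120 min pair (1432 genes had an unadjusted p under 0.05 with all pairs in limma), and 150 with no filter on low values. Cuticle collagens made up 51 of the 282: 48 of 108 had a higher slope in rep2 and 3 a lower one. In all, 62 of the 108 went down in rep1 and up in rep2, 25 went down in both, 12 went up in both and 9 went up in rep1 and down in rep2. Over all 11927 genes tested, 1775 went down in rep1 and up in rep2.

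col-77 shows this crossing. It stood at 305, 115, 81.2 and 47.3 in rep1 and at 31.3, 46.8, 69.7 and 283 in rep2, so rep1 was higher until 60 min and rep2 at 120 min. Its mean difference of -0.55 ± 0.88 was not called (limma adjusted p = 0.643), while the slopes of -1.24 and 1.58 log2 per hour differed by 2.82 ± 0.28 (limma adjusted p = 0.00476). col-115 crossed in the same way, at 31.3, 8.63, 5.89 and 3.51 in rep1 and 2.65, 6.47, 10.2 and 37.9 in rep2. The median pair difference of the 92 numbered col genes went from -1.45 without auxin through -0.57 and -0.34 to 0.48 at 120 min, and 44 of them had a higher and 2 a lower slope in rep2.

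Genes outside the collagens crossed too. grd-6, a hedgehog-related gene, stood at 36.3, 10.9, 9.39 and 3.93 in rep1 and 1.43, 2.40, 5.76 and 26.8 in rep2, a slope difference of 3.13 ± 0.31. F48G7.5 (3.34 ± 0.47) and K01D12.9 (3.11 ± 0.33) had the other high values among genes of a mean level of at least 10. Slopes of pharyngeal genes differed as well: 6 of 14 tested had a higher slope in rep2 and none a lower one. phat-2, a gene of the pharyngeal glands, stood at 10.98, 5.28, 5.399 and 1.41 in rep1 and 17.2, 19.02, 18.9 and 24.5 in rep2. Its series did not cross, but the slope difference was 1.31 ± 0.20 (limma adjusted p = 0.0217). The median pair difference of the 14 went from -0.12 to 1.97.

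zmp-2, a matrix metalloprotease, had a lower slope in rep2 (-1.20 ± 0.21), at 3.88, 6.14, 4.32 and 5.004 in rep1 and 76.8, 59.6, 43.1 and 15.5 in rep2. C17C3.1 (-1.62 ± 0.28), C23G10.11 (-1.43 ± 0.25), C06B3.6 (-1.32 ± 0.20) and pugs-2 (-1.29 ± 0.20) were the other 4 named in that direction. They were picked by size, at a mean level of at least 10, from the 50 genes with a lower slope. C23G10.11 went up in both series, from 2.09 to 100.1 in rep1 and from 0.274 to 5.16 in rep2, and its mean level differed by -2.67 ± 0.47, a call lost with no term for auxin time (adjusted p = 0.087).

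**Figure D3:**
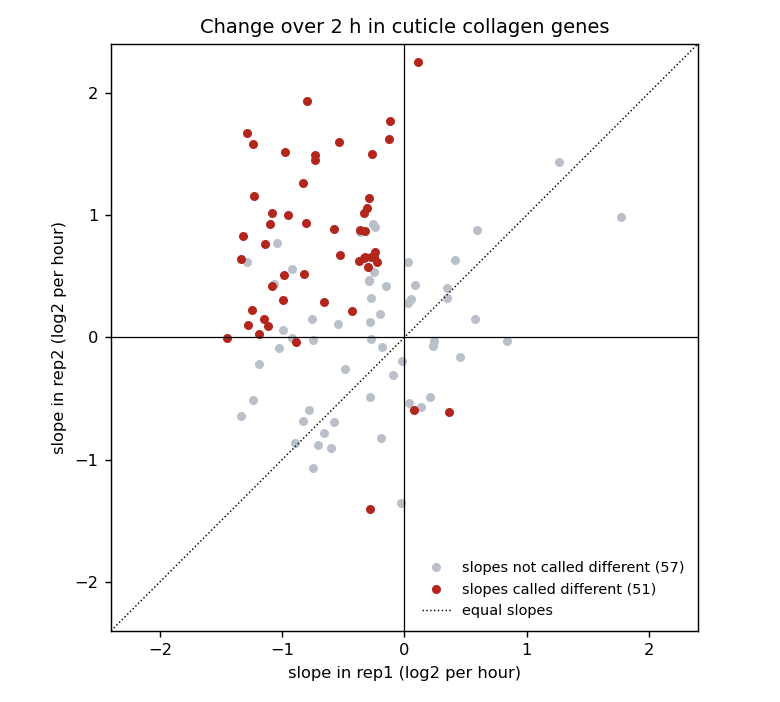
Slope over auxin time in rep1 (horizontal) against rep2 (vertical), in log2 per hour, for the 108 cuticle collagens tested, 1 point per gene, red where the 2 slopes were called different (51 genes) and grey where not (57), with equal slopes as a dotted line. Most red points lie at the upper left, in genes that went down in rep1 and up in rep2.

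**Figure D4:**
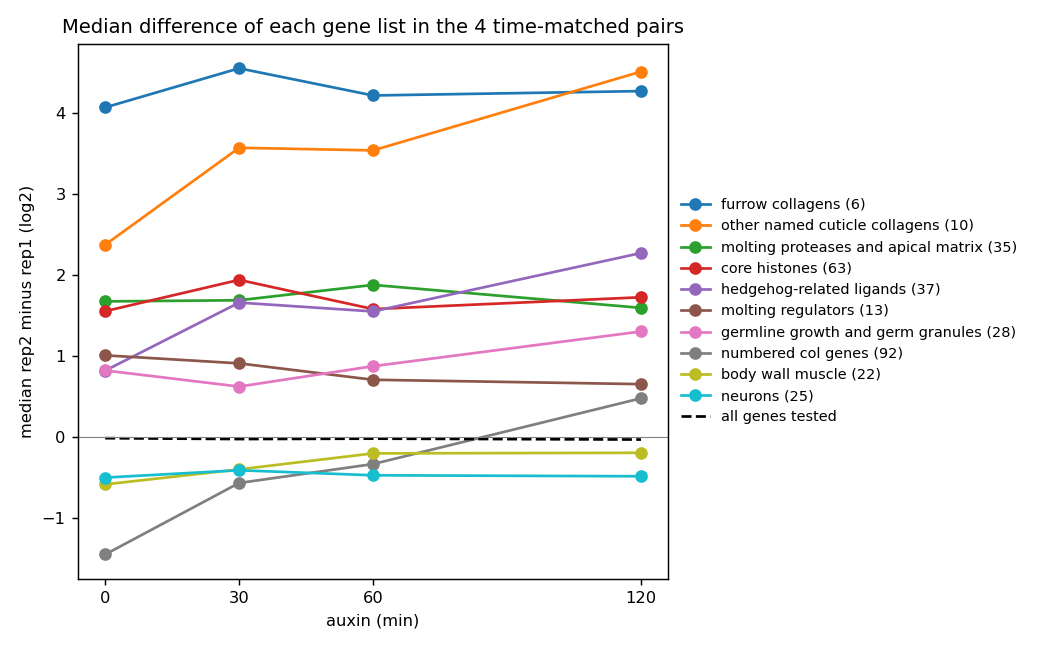
Median difference (rep2 minus rep1, log2) in the 4 time-matched pairs against minutes of auxin, 1 line per gene list with the number tested in brackets, and all genes tested as a dashed line; a point is a median over genes and has no error bar. Furrow collagens stay between 4.07 and 4.56, other named collagens go from 2.38 to 4.52, and numbered col genes cross 0 between 60 and 120 min.

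Hedgehog-related ligands, secreted proteins that C. elegans makes in large number in the skin and that act in molting, were mostly higher in rep2. Of 59 in the files, 37 were tested, 22 were higher, 6 were lower and 9 were not called (median 1.73; 2 of the 22 had passed the filter through rep2 alone). wrt-1 stood at 13.9, 6.77, 6.63 and 4.56 in rep1 and 194, 195, 158 and 134 in rep2, a difference of 4.34 ± 0.17 (limma adjusted p = 4.25e-05). wrt-10 went down with time in both series, at 22.8, 12.8, 9.74 and 5.24 and 436, 307, 159 and 76.9, and differed by 4.05 ± 0.15. wrt-2 (4.09 ± 0.11), grl-15 (3.85 ± 0.16) and qua-1 (3.70 ± 0.11), the last needed for molting, were higher as well.

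The 6 lower ligands included abundant ones. grl-21 stood at 268, 209.5, 207 and 86.2 in rep1 and 2.35, 2.27, 1.79 and 8.72 in rep2, a difference of -5.43 ± 0.55 (limma adjusted p = 0.000938). grd-10 stood at 729, 682, 676 and 951 against 71.03, 65.1, 53.9 and 232 and differed by -3.09 ± 0.27, and grl-4 (-3.35 ± 0.83), grd-13 (-2.70 ± 0.34), grd-3 (-2.68 ± 0.17) and grd-15 (-0.97 ± 0.24) completed the group. In 5 of the 6, the 120 min library of rep2 was the highest of its series, as in col-39.

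Patched-related receptors, the membrane proteins of the same family of pathways, numbered 27, of which 25 were tested, 13 were higher and 6 lower (median 0.57). ptr-4 stood at 17.7, 12.1, 11.5 and 10.4 in rep1 and 183, 133, 107 and 86.9 in rep2, a difference of 3.18 ± 0.10. ptr-18 (2.32 ± 0.18), ptr-2 (2.26 ± 0.16) and ptr-11 (1.86 ± 0.08) were higher too. ptr-13 was lower, at -1.46 ± 0.08. The ptc genes went both ways: ptc-1 (-0.42 ± 0.10) and ptc-2 (-0.33 ± 0.10) were slightly lower, whereas ptc-3 was higher (1.53 ± 0.23).

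Other secreted cuticle proteins showed no common direction. Cuticlins, insoluble cuticle proteins of the zona pellucida family, gave 5 higher and 9 lower genes of 20 tested (median -0.29, and 0.02 over the longer list with no filter on low values). cut-2 was the highest, at 1095, 505, 375 and 194 in rep1 and 2306, 2952, 2883 and 4184 in rep2 (2.75 ± 0.50), and cutl-20 was lower (-1.56 ± 0.24). Astacin proteases gave 7 higher and 5 lower of 22 tested, with nas-3 at 2.65 ± 0.19. Of 44 abu and pqn genes tested, many of them genes of the pharyngeal cuticle, 6 were higher and 11 lower; abu-13 stood at 59.2, 32.4, 27.1 and 14.6 in rep1 and 331, 323, 301 and 232 in rep2 (3.27 ± 0.23).

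Peptides that the skin makes after cuticle damage or fungal infection also split, with 4 higher and 7 lower of 18 tested (median 0.00). nlp-24 stood at 5832, 6099, 5835 and 3497 in rep1 and 772, 866, 663 and 1273 in rep2 (-2.58 ± 0.28), and nlp-26 differed by -3.81 ± 0.31. cnc-3 went the other way, at 36.02, 72.1, 93.8 and 112 and 418, 573, 558 and 695 (2.91 ± 0.17).

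The largest difference of all genes tested was in lep-5, a long noncoding RNA that acts with LEP-2 to lower LIN-28 in the timing of late larval development. lep-5 (chromosome X, 12652516 to 12653452) stood at 3.46, 4.20, 3.22 and 3.16 in rep1 and at 1193, 1437, 1267 and 1549 in rep2. The libraries of each series lay close together and the series did not overlap, so the mean ratio was 388. The difference was 8.24 ± 0.10 (limma adjusted p = 6.61e-06). Its protein partner gene lep-2 stood at 10.3, 8.98, 6.65 and 6.29 and 9.87, 7.55, 7.22 and 7.48 and was not called (0.01 ± 0.10).

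Heterochronic genes, which set stage-specific cell fates, moved by small amounts. Of 11 tested, 2 were higher (lin-42, described above, and lin-29), 4 were lower and 5 were not called, with a median of -0.16. lin-28, an RNA-binding protein of early larval fates, stood at 15.05, 17.9, 18.1 and 17.03 in rep1 and 10.9, 11.5, 8.73 and 6.25 in rep2, a difference of -0.83 ± 0.16 (limma adjusted p = 0.00919). lin-14, a transcription factor of the earliest stages, stood at 51.4, 42.7, 45 and 45.7 and 28.9, 23.9, 26.7 and 33.1 (-0.70 ± 0.09). The ranges of both genes did not overlap between series.

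hbl-1, a hunchback-like factor of the L2 stage, stood at 18.2, 25.98, 28.8 and 26.4 in rep1 and 8.67, 14.2, 18.8 and 17.2 in rep2 (-0.75 ± 0.10), with overlap between the series and a call lost with no term for auxin time (adjusted p = 0.0516). sea-2 was the fourth lower gene (-0.55 ± 0.10). lin-29, which drives the switch to adult skin, was at 5.08, 1.40, 2.52 and 3.42 and 6.08, 3.67, 3.97 and 5.98 (0.58 ± 0.14), a call lost without the 30 min or the 60 min pair (adjusted p = 0.0652 and 0.0638). lin-41 (-0.16 ± 0.11), daf-12 (-0.10 ± 0.08) and lin-46 (0.19 ± 0.18) were not called.

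Genes of vulva and gonad formation differed little: of 14 tested, 1 was higher, 3 were lower and 10 were not called (median -0.22). cog-1, a homeobox gene of the vulva, was at 17.8, 7.96, 7.33 and 6.98 in rep1 and 7.77, 4.60, 3.45 and 4.58 in rep2 (-0.80 ± 0.12). lag-2, a Notch ligand, was lower (-0.75 ± 0.13), at 1.70 to 2.17 in rep1 and 0.452 to 1.10 in rep2. lin-39, the Hox gene of the vulval precursors, was the higher one (0.35 ± 0.10).

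Germ-granule and germline growth genes made up a larger share of TPM in rep2. Of 32 listed, 28 were tested, 19 were higher, 1 was lower and 8 were not called (median 0.85). Because 5 passed the filter through rep2 alone (no rep1 library reached a TPM of 1), and so had to differ, the count is also given for the other 23, of which 14 were higher and 1 was lower (median 0.52). Some of the 23, pgl-1, gld-1 and glp-1 among them, reached that TPM in only some rep1 libraries. They would not have been tested without their rep2 levels, so neither count supports a difference. Summed over all 32 genes, filtered or not, they made up 0.0254% to 0.0276% of TPM in rep1. In rep2 they made up 0.0378% to 0.0479%, without overlap. A large part of that gap lies in iff-1, with a mean scaled TPM of 16.04 in rep1 and 92.8 in rep2. The share without iff-1 was not computed.

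glh-1, a helicase of germ granules, stood at 4.04, 2.77, 2.37 and 1.63 in rep1 and 28.8, 17.2, 19.7 and 23.96 in rep2, a difference of 2.68 ± 0.17 (limma adjusted p = 0.000199). pgl-1, the granule scaffold, stood at 2.04, 1.36, 1.08 and 0.558 and 15.7, 9.11, 11.2 and 13.1 (2.57 ± 0.18). iff-1, a germline form of the translation factor eIF5A, stood at 14.3, 13.3, 17.4 and 19.2 and 90.9, 90.6, 86.4 and 103 (2.47 ± 0.10). None of the 3 overlapped between series, which is a description of these genes only. In rep1, glh-1 and pgl-1 went down with time and iff-1 did not. glp-1, the Notch receptor that keeps germ cells dividing, differed by 1.83 ± 0.11, and gld-1, which promotes entry into meiosis, by 1.47 ± 0.22, from 0.209 to 1.02 in rep1 to 1.39 to 5.29 in rep2. pgl-1, glp-1 and gld-1 are given as values only, since their rep2 levels carried them past the filter.

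Other members of the list were closer between series. csr-1, an Argonaute, differed by 0.52 ± 0.10 and car-1, an RNA-binding protein, by 0.32 ± 0.08, while gld-2 (0.00 ± 0.08), nos-3 (0.13 ± 0.11) and lst-1 (0.36 ± 0.21) were not called. The call of csr-1 was lost without the 60 min pair (adjusted p = 0.0504). The Polycomb-like genes mes-2 (-0.11 ± 0.11) and mes-3 (-0.09 ± 0.08) were not called, and mrg-1, a chromodomain gene, was the lower one (-0.29 ± 0.09).

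Meiotic genes were at or near the filter, and 6 of the 9 tested of 23 had passed through rep2 alone, so their count is no support for a difference. rec-8, the meiotic cohesin subunit, stood at 0.223, 0.173, 0.115 and 0.131 in rep1 and 2.49, 1.73, 2.62 and 3.61 in rep2. Over all 23 genes the summed share of TPM was 0.00107% to 0.00158% in rep1 and 0.00267% to 0.00475% in rep2. him-3 was not tested, at 0.0723 to 0.281 in rep1 and 0.669 to 1.91 in rep2.

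Markers of gametes stood low in both series. Oocyte and early embryo genes (19 listed, 4 tested) reached at most 1.84 TPM in rep1 and 6.21 in rep2, and rme-2, the yolk receptor of oocytes, stayed under 1. Yolk genes, which adults express, reached at most 0.178 TPM in rep1 and 0.154 in rep2, and none of 6 was tested. Of 85 sperm genes, 5 were tested; fog-1 and fog-3, which start sperm fate in the larval germ line, stood at 0.170, 0.416, 0.527 and 0.597 and 0.327, 0.126, 0.0423 and 0.128 in rep1 against 2.34, 1.24, 1.64 and 3.39 and 3.21, 1.91, 2.60 and 3.01 in rep2. fog-3 had passed the filter through rep2 alone, as had fog-1.

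Core histone genes were higher in rep2, 53 of 63 tested against 2 lower, with a median of 1.69. his-3 stood at 4.11, 4.65, 5.92 and 5.09 in rep1 and 36.8, 31.02, 40.9 and 50.99 in rep2 (2.77 ± 0.12, limma adjusted p = 6.41e-05), and his-53 at 3.46, 3.44, 3.49 and 3.76 and 21.2, 27.4, 22.2 and 25.8 (2.46 ± 0.09). Many histone genes are near-identical copies whose reads cannot be assigned with certainty, and most replication-dependent histone mRNAs lack the poly(A) tail that the libraries selected for. The 2 lower genes were his-24, a linker histone (-1.14 ± 0.08), and his-72, a replacement histone (-0.32 ± 0.10). The summed share of the whole list, led by a few abundant genes, overlapped between series, at 0.197%, 0.26%, 0.295% and 0.308% of TPM in rep1 and 0.249%, 0.305%, 0.295% and 0.293% in rep2.

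Replication and cell cycle genes did not share that direction: of 44 tested, 5 were higher, 6 were lower and 33 were not called (median 0.07). mcm-2, a subunit of the replicative helicase, stood at 22.4, 15.1, 11.3 and 12.1 in rep1 and 13.6, 8.87, 8.02 and 12.3 in rep2 (-0.45 ± 0.14), a call lost in 6 of the alternative settings. cye-1, cyclin E, was higher by 0.92 ± 0.13, and cdk-4, a kinase of the G1 phase, was lower (-0.82 ± 0.10).

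Markers of single tissues were measured as checks on makeup. Neuronal genes were lower in rep2 in 17 of 25 cases tested and higher in 1 (median -0.45). mec-7, a tubulin of touch neurons, stood at 430.4, 404, 369 and 310.2 in rep1 and 264, 257, 210.0 and 154 in rep2 (-0.79 ± 0.09), without overlap. unc-104, a kinesin of synaptic vesicles, was lower (-0.90 ± 0.09), a call lost with no term for auxin time (adjusted p = 0.0646), and ric-4 was lower, at -0.86 ± 0.09. flp-1, a neuropeptide gene, was the higher one (1.59 ± 0.41), a call lost without the 30 min or the 60 min pair (adjusted p = 0.096 and 0.0735). The whole list made up 0.257% to 0.272% of TPM in rep1 and 0.175% to 0.193% in rep2.

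Body wall muscle genes were lower in 12 of 22 and higher in none (median -0.35), with tni-1 at 360.1, 387, 401 and 332 in rep1 and 206, 237, 248 and 194 in rep2 (-0.74 ± 0.07). Their summed share was 1.21% to 1.33% of TPM in rep1 and 0.888% to 1.04% in rep2. Shares of TPM are relative, and the part of the skin transcripts in these lower shares was not tested.

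Hypodermal and seam markers gave 5 higher and 3 lower of 15 (median 0.09). nhr-73 (2.41 ± 0.20) and nhr-74 (2.02 ± 0.25), nuclear receptors, were higher, and bro-1, a seam cell cofactor, differed by 1.66 ± 0.29. ceh-16, the engrailed homologue of the seam, was lower, at 41.2, 28.3, 31.2 and 24.8 in rep1 and 12.9, 10.9, 8.99 and 10.9 in rep2 (-1.43 ± 0.12). The junction gene ajm-1, by contrast, stood at 85.2, 72.6, 85.7 and 97.01 and 89.3, 79.8, 85.8 and 90.2 (0.03 ± 0.08, not called), so the skin markers had no common direction.

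Intestinal markers gave 5 higher and 7 lower of 17 (median -0.10). cpr-6, a cathepsin B-like protease, was higher (2.62 ± 0.26), and the intermediate filament gene ifb-2 was lower, at 283, 267, 263 and 212 in rep1 and 66.02, 80.2, 88.1 and 115 in rep2 (-1.56 ± 0.20). Ribosomal protein genes were called in 8 of 61 (7 higher, 1 lower; median 0.13). Of 13 dauer and starvation genes tested, 4 were higher and 1 was lower (median 0.42).

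Heat shock genes went down steeply with time in both series and were somewhat lower in rep2. hsp-16.1 stood at 5949.8, 5728, 2378 and 62.4 in rep1 and 4653, 2786, 861 and 22.8 in rep2, and the median slope of the 16 genes tested was -2.48 log2 per hour in rep1 and -2.14 in rep2. Of the 16, 7 were lower in rep2 and 1 was higher (median -0.36). The hsp-16 genes have near-identical copies, and with no term for auxin time hsp-16.1 lost its call (adjusted p = 0.736).

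Several of the genes with the largest differences are not members of these lists. dbd-2 (chromosome II, 4562849 to 4563543) stood at 198, 186, 174 and 149 in rep1 and 6283, 7391, 5061 and 4657 in rep2, a difference of 5.02 ± 0.10 (limma adjusted p = 1.34e-05). Y102A11A.5 stood at 34.3, 28.8, 31.6 and 33.5 and 665, 792, 646 and 808 (4.46 ± 0.11), and T06G6.6 at 19.8, 16.9, 15.4 and 12.5 and 364, 407, 344 and 411 (4.49 ± 0.14). In each of these the gap between series was far larger than the range within a series.

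Y37A1B.7 (4.68 ± 0.11) and K08B12.1 (4.37 ± 0.11) were lowest at 120 min in rep2, while C11H1.5 (4.60 ± 0.11) stood at 1.17, 1, 1.07 and 0.722 in rep1 and 55.2, 47.8, 40.2 and 46.8 in rep2. C06E7.88 was detected in 1 rep1 library, at 0.0977, and stood at 18.9, 25.3, 26.4 and 23.8 in rep2. It passed the filter through rep2 alone, so it had to differ and its place among the largest differences is a description. C11H1.5 reached a TPM of 1 in only some rep1 libraries and needed its rep2 levels to pass. Its place is a description too. Among lower genes, F45D11.14, F45D11.15 and F45D11.16 had near-identical values, 59.95, 64.5, 64.4 and 67.2 in rep1 and 2.46, 2.42, 1.64 and 1.46 in rep2 for the first (-4.46 ± 0.13), and count as uncertain copies. In the files the spans of C06E7.88 and spe-27, of K08B12.1 and mrck-1, and of Y102A11A.5 and Y102A11A.2 overlap, as do those of lon-3, col-115, lin-28, lin-29, flp-1, mec-7, wrt-2, nlp-24 and ptr-18 with a neighbour each. Whether the counting used strand is not stated.

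On chromosomes, the median difference was -0.14 on the X and -0.08 on V, and between -0.03 and 0.03 on the other 4. The share called ran from 39.6% on III to 55.3% on the X, where 385 genes were higher and 638 lower. Why the X stands lowest was not tested.

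top-1, the gene whose protein carries the degron, stood at 25.9, 24.6, 19.97 and 19.4 in rep1 and 37.5, 27.02, 23.4 and 25.3 in rep2 (0.31 ± 0.09, limma adjusted p = 0.0406), a call lost in 7 of the alternative settings. The degron acts on the protein, so this transcript does not check the depletion.

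The auxin comparison was made over the same 8 libraries. Between 120 and 0 min, 156 genes were higher and 301 lower (3.83% called) when the 2 libraries of a time were taken as plain replicates. With the replicate number as a block, 1723 were higher and 2113 lower (32.2% called), and all 457 were among the 3836. Of the 3836, 2047 were also called between the series, a count to be read beside the 45.3% called between series over all genes tested. Across genes, the deviations of the 4 pairs correlated with each other by 0.65 to 0.93 (6 combinations, a description over genes that share libraries), so libraries of 1 number deviated together. Without the block, the count was 11 without the 30 min pair, 12 without the 60 min pair, and 0 to 6 without 1 of the 4 libraries at 0 or 120 min, the 0 being rep2 at 120 min.

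The rep1 to rep2 difference was not the same in CA1200, which shares no library with the TOP-1 strain. In a fit over the 15 libraries of both strains, CA1200 had 1519 genes higher and 1598 lower in rep2 (26.1% called). The difference itself differed between strains for 5212 genes (43.7%), higher in the TOP-1 strain for 2698 and lower for 2514. The count was 2545 without the 30 min pair. With TPM as deposited the split was 1602 to 3935, and that scaling moved the median of all genes from -0.01 to -0.39. Across genes, the 2 strains' differences had a Pearson r of -0.06 and a Spearman rho of -0.12, given as a description over the 11927 genes.

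lep-5 had the opposite order in CA1200, at 1206, 1461, 1335 and 1282 in rep1 and 255, 293 and 557 in rep2 at 0, 30 and 120 min (-1.92 ± 0.22, limma adjusted p = 0.00576). The rep1 libraries of the TOP-1 strain, at 3.16 to 4.20, were thus the lowest of these 15. For the furrow collagens the CA1200 median was 0.67, with 4 of 6 higher, beside 4.31 in the TOP-1 strain in the same fit. dpy-7 in CA1200 stood at 193, 138, 94.8 and 83.8 in rep1 and 202, 158 and 157 in rep2 (0.39 ± 0.18, not called). All its values lay between the rep1 and rep2 values of the TOP-1 strain at 0 min.

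Histones had opposite signs in the 2 strains, with a median of -0.79 in CA1200 (1 higher, 33 lower of 63) beside 1.71 in the TOP-1 strain in the same fit, and 51 of the 63 had a higher difference in the TOP-1 strain. Muscle (0.35) and neurons (0.29) were also of opposite sign in CA1200. Other named collagens had a median of -0.51 in CA1200 with none called, beside 3.51. Numbered col genes had a median of -0.94 in CA1200, with 2 higher and 34 lower of 92, beside -0.62 in the split list of the TOP-1 strain. Their difference between strains was called higher for 35 and lower for 30 (median 0.61). nhr-23 was higher in rep2 in both, by 1.22 ± 0.25 for CA1200 and 1.52 for TOP-1, and the strains' difference of 0.30 ± 0.33 was not called (limma adjusted p = 0.477). For lin-42 the difference between strains was 2.74 ± 0.35 (limma adjusted p = 0.000786).

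Of 28 germ-granule genes, 2 were called higher and none lower in CA1200 (median 0.25). The filter used TPM in the TOP-1 strain only, so that count is no contrast between strains. gld-1, for example, stood at 0.19 to 0.556 in CA1200. Summed over the whole list, the CA1200 share of TPM was 0.0176% to 0.0227% in rep1 and 0.0261% to 0.0338% in rep2. These ranges did not overlap, as in the TOP-1 strain. Meiotic genes had CA1200 shares of 0.000711% to 0.00108% and 0.0013% to 0.00161%, again without overlap. glh-1 there stood at 0.983, 1.72, 1.37 and 2.59 in rep1 and 3.53, 2.63 and 1.86 in rep2, below every rep2 library of the TOP-1 strain, and the strains' difference was 2.26 ± 0.37 (limma adjusted p = 0.00198).

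**Figure D5:**
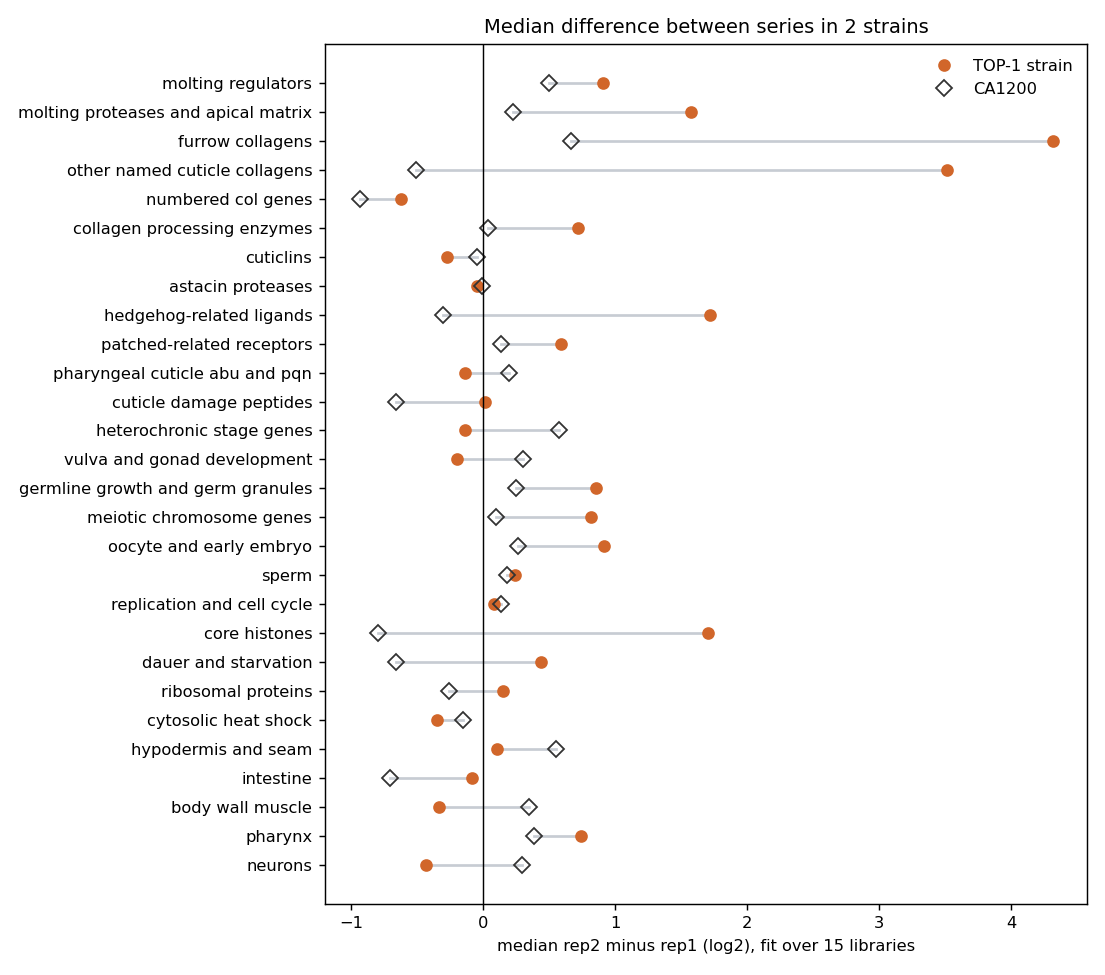
Median difference between rep2 and rep1 (log2) for each gene list for TOP-1 (orange circles) and CA1200 (open diamonds), both from the fit over 15 libraries, joined by a grey line; medians over genes, with no error bar. Histones, hedgehog-related ligands, other named collagens, muscle and neurons lie on opposite sides of 0 in the 2 strains, and furrow collagens and molting regulators lie on the same side.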

How the data were processed

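The 8 TOP-1 strain libraries and 7 CA1200 libraries were used as deposited: per gene, the authors' FPKM and TPM from Cufflinks, per the file headers. Per the submitters' processing notes the tools were Cufflinks 2.2.1, HISAT2 2.2.1, CASAVA 1.8, DESeq2 1.30.0 and HTSeq 0.13.5. No genome build is given in the labels or files used, so coordinates are those of the files. Libraries were stranded (dUTP), per the labels' protocols. Symbols were matched by sequence name for 19880 of 20390 genes, and 2 sequence names on more than 1 line were kept apart. The deposited FPKM served only to estimate depth, from the step that 1 fragment makes in genes with few reads. Precision is that of 1 library per series and time.

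TPM was scaled by median ratios and log2(TPM + 1) was taken. A gene was tested where 4 or more of the 8 libraries had a TPM of 1 or higher, with limma 3.58.1 (R 4.3.3; variances following the mean, two-sided, Benjamini-Hochberg over all genes tested). The series fit had auxin time as a block and 3 residual degrees of freedom, the slope fit 4 and the fit over 15 libraries 5. The fits were run on simulated data with independent noise of the same size in every gene and library. Libraries of 1 number deviated together in the real data, so that run cannot show the error rates here. In the fit over 15 libraries, the lone CA1200 library at 60 min is taken up by its own time term.

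The replicate numbers pair the libraries: the time-matched deviations correlated across genes in all 6 combinations (0.65 to 0.93). Members, 30 gene lists and named genes were chosen with earlier results of these data known, and 23 genes are in more than 1 list. Genes were named by rule: the 10 with the highest and lowest called difference of 1 sign in all pairs and a mean TPM of at least 10, the 5 in each direction by slope, up to 4 per list, and a set of molting, timing and germline genes; others in the text are list members chosen after their values were seen. Alternatives changed the scaling, pseudocount, filter, variance model, time term and libraries used. Other processed values of the study were not used here.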

Additional observations from a re-analysis of the deposited data

Results flagged for a closer look

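Slopes over auxin time differed between rep1 and rep2 of the TOP-1 strain, by the test of that difference in limma, for 282 genes. Among the genes named for a higher slope in rep2, the slope difference in log2 per hour was F48G7.5 3.34, grd-6 3.13, K01D12.9 3.11, col-115 2.96 and col-77 2.82. Among those named for a lower slope it was C17C3.1 -1.62, C23G10.11 -1.43, C06B3.6 -1.32, pugs-2 -1.29 and zmp-2 -1.20.

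The rep2 minus rep1 difference was not the same in the TOP-1 strain and in CA1200, by the interaction term in limma, for 5212 genes. The interaction (TOP-1 minus CA1200, log2) for the genes with the largest series differences was lep-5 10.17, dbd-2 5.26, Y37A1B.7 4.99, C11H1.5 4.46, C06E7.88 5.81, T06G6.6 5.08, Y102A11A.5 5.18, dpy-7 4.04, dpy-2 3.69 and K08B12.1 4.14. For molting, collagen and germline genes that the naming rule always includes it was lin-42 2.74, grh-1 1.56, dpy-10 3.01, dpy-13 4.09, dpy-5 4.23, rol-6 4.47, sqt-1 4.38, mlt-10 3.68, mlt-11 2.07, nas-37 2.86, noah-1 2.39, pgl-1 2.08, glh-1 2.26, glp-1 1.56 and gld-1 1.41. For the genes with the lowest series differences and for lin-28 and lin-14 it was col-39 -5.05, grl-21 -4.59, col-146 -4.51, col-93 -4.49, col-147 -4.78, col-160 -4.56, F45D11.16 -3.0, F45D11.15 -3.0, col-159 -3.96, F45D11.14 -2.99, lin-28 -0.86 and lin-14 -1.39. C06E7.88 passed the filter on low values through rep2 alone. C11H1.5, pgl-1, glp-1 and gld-1 needed their rep2 levels to pass, so the values of all of these are descriptions. The genes with the largest and lowest series differences were chosen by their TOP-1 strain values, which are 1 side of the interaction. That choice favours a large interaction, so their values are descriptions too.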

How the results depend on the processing

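No named gene called between the series (118) changed direction in the alternative settings it was tested in, 13 at most, and 28 of them lost the call in at least 1. C23G10.11, fbn-1, gld-1, glp-1 and lin-29 have no value under the filter of TPM 5. F48G7.5, grd-6 and pugs-2 were called without the 120 min pair and not otherwise. The count of genes called between series was 3266 with no term for auxin time and ran from 3487 to 5232 as each pair was left out. The slope count was 150 with no filter on low values and ran from 0 to 244 as pairs were left out. The count of genes whose difference depends on strain ran from 2545 to 5447. The cause was not tested; the leave-out fits hold fewer libraries, and their filter asked for 3 of 6.

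With the replicate number as a block (replicate block), 3836 genes were called at 120 min against 0 min in place of 457; as pairs or single libraries were left out without the block, that count ran from 0 to 12. Leaving out single libraries at 0 and 120 min was chosen after seeing the data. In the series difference, leaving out 1 library is leaving out its pair. No other setting moved one of these counts by over 1.5 times. Over lists and settings together, list medians moved in 34 cases and stayed the same in 329. Of 28 list medians, those of germline, meiotic and histone genes moved with the pseudocount (1.31, 1.55 and 2.01 at 0.1; 0.37, 0.28 and 1.02 at 5). With 1 library per series and time, depth does not limit the abundant collagens, while differences of germline genes at a TPM near 1 rest on few fragments.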
